A study of Mus musculus with 9 samples.

Results

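Globozoospermia is a form of male infertility in which sperm have round heads with no acrosome or a malformed one. The genes described here are 10 mouse genes whose loss or mutation has been linked to it or to related defects of the sperm head, namely Spata16, Dpy19l2, Gopc, Pick1, Zpbp, Zpbp2, Spaca1, Agfg1, Csnk2a2 and Hook1. They were listed by name for this role, with earlier results of these data known, and they are 10 of the 39305 features with a value in every library of the deposited mRNA table. All 10 passed the filter on low values, 0.5 FPKM in 3 or more libraries, that 17987 features passed. Spata16, Dpy19l2 and Zpbp2, with spermatogonia means of 0.0719, 0.331 and 0.403 FPKM, passed it only through pachytene and round spermatid libraries.

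Germ cells of adult male mice, taken from the testis of animals on a normal diet, were profiled by RNA sequencing. The 9 libraries are 3 of spermatogonia, types A and B together, 3 of pachytene spermatocytes and 3 of round spermatids. Spermatogonia divide by mitosis before meiosis begins, pachytene is the stage of meiotic prophase in which homologous chromosomes are fully paired, and round spermatids, haploid and no longer dividing, build the acrosome. The labels call the libraries of a stage biological replicates but give no strain, no age beyond adult, no method of cell isolation and no number of animals or pooling, so p-values measure the spread between these samples, which may be technical.

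The acrosome is a secretory vesicle that caps the sperm nucleus and holds proteins for binding and entering the egg. In round spermatids, proacrosomal vesicles leave the Golgi apparatus, travel along the cytoskeleton, fuse with each other and flatten onto the nuclear envelope. Proteins of vesicle traffic, of the nuclear envelope and of the acrosome itself are all needed, and many of their genes are transcribed before the acrosome is visible.

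Values are FPKM, which scales fragments to transcript length and to library size, so levels can be compared between genes. The low values fall on steps that imply 17.1 to 54.5 M (mega) fragments per library, an estimate, since no depth is stated. The 12 spermatogonia markers summed to 424 to 529 FPKM in spermatogonia, 48.3 to 52.4 in pachytene and 96.5 to 99.8 in round spermatid libraries. The 12 pachytene markers summed to 122 to 144 FPKM, 8093 to 8285 and 6327 to 6667 in the same order of stages. The 12 round spermatid markers summed to 1.54 to 1.97 FPKM in spermatogonia, 1468 to 1669 in pachytene and 16529 to 16986 in round spermatids. As a sum, each germ cell list was therefore highest in the stage whose name it bears. In the pachytene list this rests largely on Hist1h1t, at 1973 FPKM in pachytene and 172 FPKM in round spermatids. Ldhc (4240 and 4540 FPKM), Pgk2 (175 and 704), Ccna1 (89.9 and 145) and Sycp1 (52.8 and 55.8) were higher in round spermatids, and the rest of that list was lower there. Of somatic lists, 15 Sertoli cell markers summed to 1203 to 1360 FPKM in spermatogonia, 359 to 377 in pachytene and 128 to 132 in round spermatids. The 8 fibroblast markers summed to 169 to 392, 8.44 to 9.73 and 29.5 to 30.2 FPKM, and 9 Leydig markers to 60.3 to 70.9, 94.0 to 102.7 and 20.8 to 29.6 FPKM. Of the Leydig sum in pachytene, Insl3 alone made up 65.9 FPKM. The 7 peritubular myoid cell markers summed to 187 to 261, 39.9 to 43.0 and 218 to 226 FPKM, of which Actg2 alone made up 193 FPKM in round spermatids and 2.76 FPKM in spermatogonia, while 5 of the 7 were lower in round spermatids than in spermatogonia. The 7 endothelial markers summed to 33.2 to 76.5, 4.79 to 6.09 and 9.87 to 12.2 FPKM and the 5 erythroid markers to 114 to 317, 5.44 to 7.08 and 2.16 to 3.55 FPKM. The 9 macrophage markers summed to 7.45 to 40.5, 7.05 to 8.83 and 23.6 to 28.03 FPKM, and 8 of them were higher in round spermatids than in pachytene. Of these 7 somatic lists, only the erythroid one had genes at 0 throughout a stage, 1 in pachytene and 2 in round spermatids. The part of somatic cells in the results below was not tested. In a bulk sample, fewer cells of a type and less RNA per cell cannot be told apart.

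Pachytene spermatocytes were set against spermatogonia to ask which of the genes were transcribed by meiotic prophase, before the acrosome forms. All 10 genes were higher in pachytene spermatocytes than in spermatogonia, from 3.09-fold for Hook1 to 1430-fold for Spata16 on the scale of FPKM + 0.1. Higher here means an adjusted p under 0.05 and at least a 2-fold difference by limma over all 17987 features, a call that 36.6% of features met, where 31% were lower and 67.6% were called in either direction. Their log2 fold changes had a median of 3.85, against 0.26 over all features. In each gene every pachytene library was above every spermatogonia library, which held for 48% of all features. Spata16, Dpy19l2 and Zpbp2 passed the filter only through the later stages. Their direction was thus nearly set in advance, and they add little to these counts. The spermatogonia means spanned 0.0719 to 24.7 FPKM and the pachytene means 27.7 to 270.1 FPKM. As ratios, though not in FPKM, the genes thus differed far more in spermatogonia than in pachytene. They split into a set at or below 1.44 FPKM in spermatogonia (Spata16, Dpy19l2, Zpbp2, Spaca1 and Zpbp) and a set at 5.01 FPKM or above (Gopc, Csnk2a2, Pick1, Hook1 and Agfg1).

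**Figure D1:**
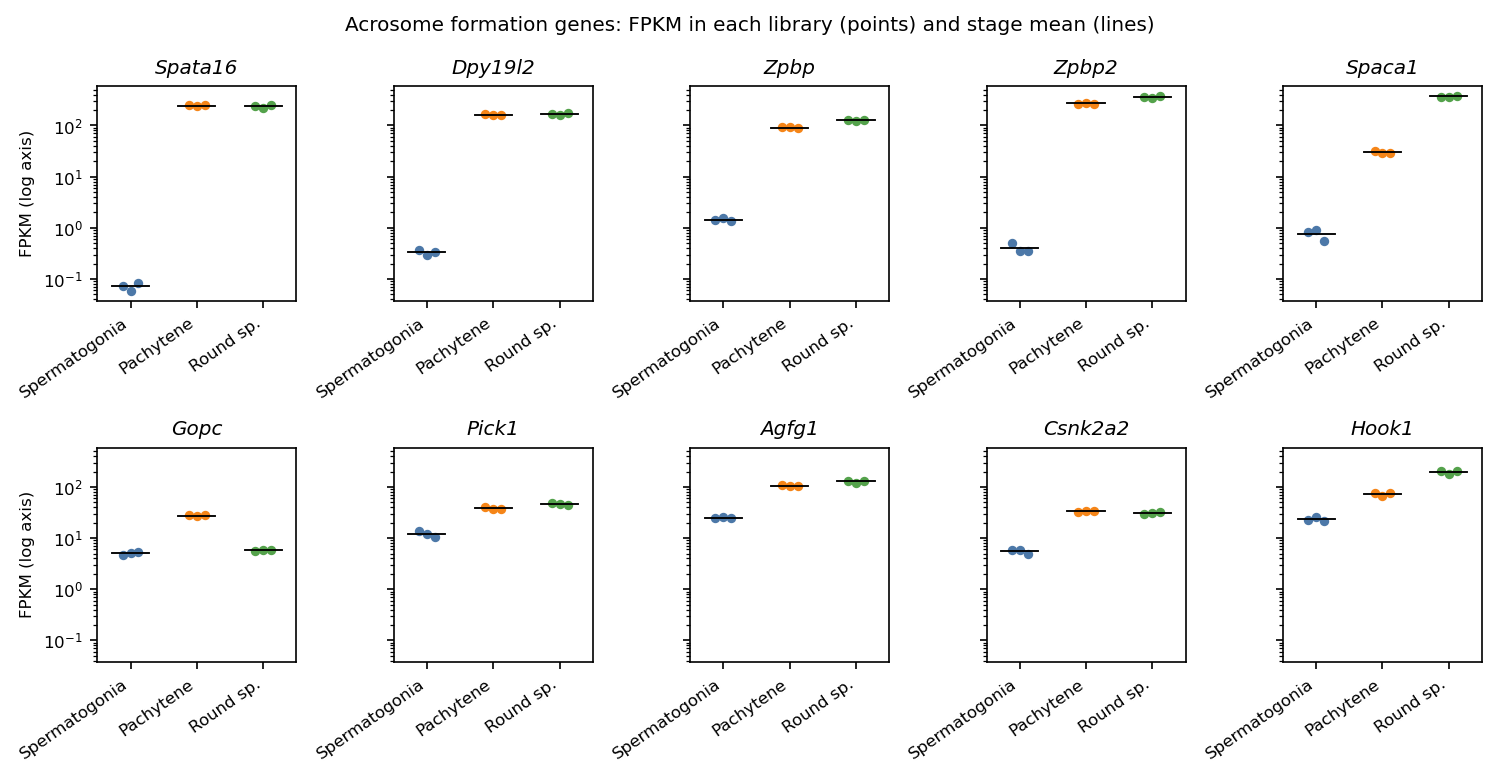
FPKM of the 10 genes (log axis) in the 3 libraries of each stage (points) with the stage mean (lines); the upper row holds the genes at or below 1.44 FPKM in spermatogonia. Every pachytene point lies above every spermatogonia point, Spaca1 and Hook1 climb again in round spermatids, and Gopc returns close to its spermatogonia level.

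Spata16 and Dpy19l2 were near 0 in spermatogonia and high, at overlapping levels, in both later stages. Spata16 (ENSMUSG00000039335.6, chr3:26637620-26983212, plus strand, GRCm38) encodes a Golgi protein that ends up in the acrosome and is mutated in some men with globozoospermia. It was at 0.0731, 0.0581 and 0.0843 FPKM in spermatogonia, 248, 239 and 247 FPKM in pachytene, and 240.4, 224 and 256 FPKM in round spermatids. The spermatogonia values correspond to about 3.78 to 9.29 fragments per library, so its fold has little precision at that end. The pachytene and round spermatid libraries overlapped. Pachytene exceeded spermatogonia by a log2 fold change of 10.48 (SE 0.0703, limma adjusted p = 2.042e-13), while round spermatids differed from pachytene by -0.03 (95% interval -0.19 to 0.13, adjusted p = 0.7214). With all libraries set to an equal median the last value was -0.39.

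Dpy19l2 (ENSMUSG00000085576.2, chr9:24557047-24696293, minus strand) encodes a protein of the inner nuclear membrane that holds the acrosome to the nucleus, and its deletion is the most frequent known genetic cause of globozoospermia in men. It was at 0.375, 0.291 and 0.329 FPKM in spermatogonia, 166, 163 and 159.9 FPKM in pachytene, and 167, 160.5 and 174 FPKM in round spermatids. Again the spermatogonia libraries stood far below and the other 6 overlapped. The log2 fold change of pachytene over spermatogonia was 8.57 (SE 0.0719, limma adjusted p = 5.362e-13), and that of round spermatids over pachytene was 0.04 (95% interval -0.13 to 0.20, adjusted p = 0.6702). With equal medians the last value was -0.32.

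The RefSeq windows from 250 bases before to 50 bases after the transcript start (GRCm38.p6) are shown for these genes because they were the genes whose later stages overlapped, and are the only members with CACGTG in that window. Capitals mark CACGTG, an E-box, and TGACG, one arm of the cAMP response element that CREM and CREB bind. Sequences read 5′ to 3′ on the gene's strand, Spata16 at chr3:26637381-26637680 (plus) and Dpy19l2 at chr9:24696244-24696543 (minus).
Spata16: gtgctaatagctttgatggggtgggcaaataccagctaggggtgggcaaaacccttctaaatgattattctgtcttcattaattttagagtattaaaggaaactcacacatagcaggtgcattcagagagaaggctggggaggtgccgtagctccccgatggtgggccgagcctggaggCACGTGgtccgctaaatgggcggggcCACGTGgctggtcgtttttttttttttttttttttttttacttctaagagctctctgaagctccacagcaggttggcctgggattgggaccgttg
Dpy19l2: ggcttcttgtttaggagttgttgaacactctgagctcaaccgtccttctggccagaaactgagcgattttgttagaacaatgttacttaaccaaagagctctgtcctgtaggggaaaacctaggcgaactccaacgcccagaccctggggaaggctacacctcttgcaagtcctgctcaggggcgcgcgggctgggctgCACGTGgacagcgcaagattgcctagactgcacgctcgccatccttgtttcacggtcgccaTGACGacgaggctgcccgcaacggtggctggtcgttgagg

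The proteins of the acrosome itself, Zpbp, Zpbp2 and Spaca1, were also low in spermatogonia, and Spaca1 differed from the others in how much of its level it reached by pachytene. Zpbp (ENSMUSG00000020193.3, chr11:11279626-11462408, minus strand) and its paralogue Zpbp2 (ENSMUSG00000017195.10, chr11:98551097-98558665, plus strand) encode acrosomal proteins that bind the zona pellucida of the egg, and mice without Zpbp have sperm with round heads. Zpbp was at 1.41, 1.59 and 1.34 FPKM in spermatogonia, 93.7, 91.5 and 88.0 FPKM in pachytene, and 126, 120.4 and 130.02 FPKM in round spermatids. Zpbp2 was at 0.508, 0.350 and 0.352 FPKM in spermatogonia, 264, 278 and 269 FPKM in pachytene, and 359, 346 and 372 FPKM in round spermatids. In both genes the 3 stages did not overlap. Pachytene exceeded spermatogonia by a log2 fold change of 5.89 for Zpbp (SE 0.0667, limma adjusted p = 2.484e-12) and 9.08 for Zpbp2 (SE 0.107, adjusted p = 3.068e-12). Round spermatids were above pachytene by 0.46 for Zpbp (SE 0.0667, adjusted p = 0.0001787) and 0.41 for Zpbp2 (SE 0.107, adjusted p = 0.006729), differences beyond the spread between libraries but under 2-fold. With equal library medians they were 0.103 for Zpbp (adjusted p = 0.304) and 0.0502 for Zpbp2 (adjusted p = 0.7379), no longer past the test.

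Spaca1 (ENSMUSG00000028264.11, chr4:34024874-34050191, minus strand) encodes a membrane protein of the acrosome, without which mouse sperm heads are round. It was at 0.844, 0.922 and 0.550 FPKM in spermatogonia, 31.5, 29.4 and 29.1 FPKM in pachytene, and 367, 361 and 382 FPKM in round spermatids. The stages were far apart and no libraries of different stages overlapped. Its log2 fold change was 5.13 for pachytene over spermatogonia (SE 0.145, limma adjusted p = 8.8e-10) and 3.62 for round spermatids over pachytene (SE 0.145, adjusted p = 3.75e-08). Among all features, 293 had a higher mean than Spaca1 in round spermatids, the fewest for any of the 10 genes, and 305 had a higher mean than Zpbp2. A RefSeq start window of Spaca1 (chr4:34050016-34050315, minus strand) is shown because Spaca1 is the only one of the 10 genes with more than 1 TGACG in a window. Its other window, at chr4:34050018-34050317, overlaps this one and holds the same copies. Capitals mark both copies.
Spaca1: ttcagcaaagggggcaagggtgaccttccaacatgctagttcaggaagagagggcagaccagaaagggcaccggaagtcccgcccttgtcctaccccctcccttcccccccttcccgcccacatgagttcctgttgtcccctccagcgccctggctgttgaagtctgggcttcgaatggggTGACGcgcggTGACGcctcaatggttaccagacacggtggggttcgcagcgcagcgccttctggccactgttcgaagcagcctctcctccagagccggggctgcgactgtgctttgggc

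The genes of vesicle traffic had substantial transcript in spermatogonia already, and Gopc alone was lower again in round spermatids. Gopc (ENSMUSG00000019861.9, chr10:52335850-52382124, minus strand) encodes a PDZ-domain protein of the trans-Golgi network needed to carry vesicles to the mouse acrosome. It was at 4.63, 5.12 and 5.29 FPKM in spermatogonia, 28.004, 26.7 and 28.3 FPKM in pachytene, and 5.55, 5.96 and 5.86 FPKM in round spermatids. All 3 pachytene libraries stood above the other 6, which lay close together without overlapping. Pachytene exceeded spermatogonia by a log2 fold change of 2.44 (SE 0.0675, limma adjusted p = 7.586e-10) and round spermatids were below pachytene by -2.24 (SE 0.0675, adjusted p = 7.449e-09). Its mean in round spermatids was 20.9% of that in pachytene. The 12 pachytene markers ran from 8.73% to 401% by the same measure, with a median of 66.5%. The RefSeq start window of Gopc (chr10:52382075-52382374, minus strand) is shown as that of the one member that fell; capitals mark CGTCA, which is TGACG read on the opposite strand.
Gopc: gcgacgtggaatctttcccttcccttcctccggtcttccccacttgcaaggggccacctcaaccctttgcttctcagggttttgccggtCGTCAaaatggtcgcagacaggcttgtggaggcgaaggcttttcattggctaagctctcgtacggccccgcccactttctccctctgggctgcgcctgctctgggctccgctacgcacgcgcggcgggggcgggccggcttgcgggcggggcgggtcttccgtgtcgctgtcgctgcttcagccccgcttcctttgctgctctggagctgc

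Pick1 (ENSMUSG00000068206.7, chr15:79229173-79249484, plus strand) encodes a membrane-bending PDZ and BAR domain protein that binds Gopc on Golgi-derived vesicles. Its FPKM were 13.6, 11.997 and 10.7 in spermatogonia, 40.6, 37.2 and 37.2 in pachytene, and 49.5, 46.5 and 44.4 in round spermatids. Agfg1 (ENSMUSG00000026159.8, chr1:82839483-82901182, plus strand), also called Hrb, sits on the outer face of proacrosomal vesicles, and without it these vesicles fail to fuse in mice. Its FPKM were 24.4, 25.3 and 24.5 in spermatogonia, 107, 106 and 106 in pachytene, and 131, 120.7 and 134 in round spermatids. In both genes the stages did not overlap and most of the difference lay between spermatogonia and pachytene. That step had a log2 fold change of 1.66 for Pick1 (SE 0.0862, limma adjusted p = 6.573e-08) and 2.10 for Agfg1 (SE 0.0484, adjusted p = 2.234e-10). Round spermatids against pachytene gave 0.29 for Pick1 (adjusted p = 0.01371) and 0.27 for Agfg1 (adjusted p = 0.0008201), and both values turned negative, at -0.07 and -0.09, when all libraries were set to an equal median. Pick1 shares 1222 exonic bases with Gm49486, a gene on the same strand in GENCODE M21 that was not analysed here, so fragments could be split between them.

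Csnk2a2 (ENSMUSG00000046707.8, chr8:95446096-95490039, minus strand) encodes a catalytic subunit of the protein kinase CK2, and male mice without it are infertile with round-headed sperm. It was at 5.83, 5.79 and 5.001 FPKM in spermatogonia, 32.5, 34.0 and 33.5 FPKM in pachytene, and 29.04, 30.8 and 31.8 FPKM in round spermatids. The step into pachytene gave a log2 fold change of 2.57 (SE 0.0695, limma adjusted p = 6.592e-10). Every round spermatid library lay just below every pachytene library, yet the difference of -0.12 did not pass the test (95% interval -0.28 to 0.03, adjusted p = 0.1325). With equal library medians it was -0.48 (adjusted p = 0.001255), still under 2-fold.

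Hook1 (ENSMUSG00000028572.8, chr4:95967240-96025413, plus strand) encodes a microtubule-binding protein of the manchette, the sleeve of microtubules that shapes the sperm head, and is mutated in the azh mouse, whose sperm heads are misshapen. It was at 22.9, 26.1 and 22.0 FPKM in spermatogonia, 75.8, 67.6 and 76.6 FPKM in pachytene, and 205, 178 and 204 FPKM in round spermatids. The stages did not overlap, and the replicate 2 libraries of both later stages were the lowest of their stage. Both steps were called, with a log2 fold change of 1.63 for pachytene over spermatogonia (SE 0.0853, limma adjusted p = 6.98e-08) and 1.41 for round spermatids over pachytene (SE 0.0853, adjusted p = 4.878e-07).

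Round spermatids were set against pachytene spermatocytes to ask what changed as the acrosome is built. Of the 10 genes, 2 rose, Spaca1 and Hook1, where 27.3% of all features rose, and 1 fell, Gopc, where 13.4% of all features fell. The other 7 were not called, and 40.8% of features were called in either direction. A group of 10 genes with 3 called is thus near the background, and the median difference of 0.28 on the log2 scale compares with 0.13 over all features. Equal library medians moved every value of this comparison by -0.36 on the log2 scale, and calls over all features to 3986 higher and 4115 lower, against 4915 and 2418, a share of higher calls of 49.2% in place of 67%. Pick1, Zpbp, Zpbp2 and Agfg1 had an adjusted p under 0.05 with differences of 0.27 to 0.46 on the log2 scale, less than the 2-fold of a call. Every round spermatid library was above every pachytene library in 6 genes and below in 2, which held for 44.2% and 35.9% of all features, and only Spata16 and Dpy19l2 overlapped.

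A test of the difference between the steps asked whether a gene's change into round spermatids matched its change into pachytene. Both steps use the same pachytene libraries, so they are not independent. Spata16, Dpy19l2 and Zpbp2 passed the filter only through the later stages, so the direction of their change into pachytene was nearly set in advance. They add little to the count that follows. The value for Spata16 also rests on about 3.78 to 9.29 fragments per spermatogonia library and on the pseudocount. The second step was smaller than the first in 9 genes, a call on adjusted p alone that 41.3% of features met in that direction, 41.7% in the other and 83% in either, with differences from -1.37 for Pick1 (SE 0.149, limma adjusted p = 2.059e-05) to -10.51 for Spata16 (SE 0.122, adjusted p = 2.184e-11). Spaca1 also belonged to these, at -1.51 (SE 0.251, adjusted p = 0.0003785). That value rests on its pachytene level, which lay in the range of the round spermatid markers by the share given further on, and the part of spermatid RNA in it was not tested. For Hook1 the difference was -0.22 (95% interval -0.55 to 0.12, adjusted p = 0.2005), which does not show that its steps were equal. With equal library medians it was -0.68 (adjusted p = 0.004015), which makes all 10 genes smaller at the second step. That scaling moved every value of this test by -0.46. Of the 17987 features it then called 8334 smaller and 6370 larger at the second step, in place of 7432 and 7498. Taking the calls of both steps, 7 genes were higher and then not called, a pattern of 18.9% of all features, Spaca1 and Hook1 were higher at both steps, as were 10.5% of features, and Gopc was higher and then lower, as were 7.2%.

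**Figure D2:**
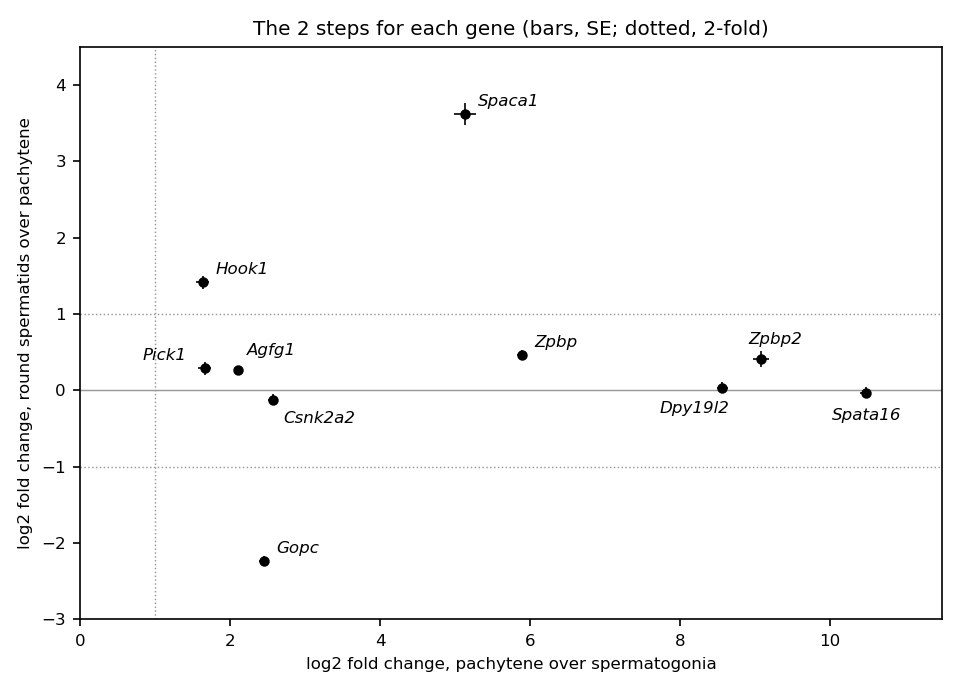
Log2 fold change of round spermatids over pachytene (vertical axis) against that of pachytene over spermatogonia (horizontal axis) for the 10 genes, with SE bars and dotted lines at a 2-fold difference; both axes share the pachytene libraries. All 10 points lie right of the vertical line, 7 lie between the horizontal lines, Spaca1 and Hook1 lie above them and Gopc lies below at -2.24.

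Across the whole span, round spermatids were higher than spermatogonia in 9 of the 10 genes, against 38.5% of all features, where 30.1% were lower and 68.6% were called in either direction. Here too the filter nearly set the direction of Spata16, Dpy19l2 and Zpbp2. The log2 fold changes ran from 1.95 for Pick1, 2.37 for Agfg1, 2.45 for Csnk2a2 and 3.04 for Hook1, through 6.35 for Zpbp, 8.60 for Dpy19l2 and 8.75 for Spaca1, to 9.49 for Zpbp2 and 10.45 for Spata16. The exception was Gopc, at 5.79 ± 0.212 FPKM in round spermatids and 5.01 ± 0.343 FPKM in spermatogonia (SD, n = 3 each). Its difference of 0.21 had a limma adjusted p of 0.01695 but was far under 2-fold, and it was -0.05 with equal library medians.

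In round spermatids the genes by mean level were Spaca1 (369.6 ± 10.8 FPKM), Zpbp2 (359 ± 12.9), Spata16 (240.0 ± 15.8), Hook1 (195.7 ± 14.997), Dpy19l2 (167 ± 6.74), Agfg1 (128 ± 6.79), Zpbp (125.5 ± 4.82), Pick1 (46.8 ± 2.55), Csnk2a2 (30.6 ± 1.42) and Gopc (SD, n = 3 each). The ranges of Spaca1 and Zpbp2 overlapped, as did those of Agfg1 and Zpbp. In pachytene the order was Zpbp2 (270.1 ± 6.97 FPKM), Spata16 (245 ± 4.77), Dpy19l2 (163 ± 3.17), Agfg1 (107 ± 0.510), Zpbp (91.1 ± 2.89), Hook1 (73.3 ± 4.96), Pick1 (38.3 ± 1.93), Csnk2a2 (33.3 ± 0.750), Spaca1 (29.99 ± 1.32) and Gopc (27.7 ± 0.847). No neighbours in that order overlapped. Spaca1 was thus second to last in pachytene and first in round spermatids. In spermatogonia Agfg1 (24.7 ± 0.510 FPKM) and Hook1 (23.7 ± 2.15) led with overlapping ranges, followed by Pick1 (12.1 ± 1.42), then Csnk2a2 (5.54 ± 0.469) and Gopc (5.01 ± 0.343), whose ranges overlapped. Below them came Zpbp (1.44 ± 0.130 FPKM), Spaca1 (0.772 ± 0.196), then Zpbp2 (0.403 ± 0.0905) and Dpy19l2 (0.331 ± 0.0420) with overlapping ranges, and Spata16 (0.0719 ± 0.0131). The coefficient of variation over 3 libraries was 2.06% to 25.4% in spermatogonia, where values were low, 0.478% to 6.77% in pachytene and 2.92% to 7.66% in round spermatids.

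Round spermatid markers were detected in the pachytene libraries, and the ratio of Spaca1 between the stages lay inside their range. The 12 round spermatid markers, among them the protamines Prm1 and Prm2 and the transition proteins Tnp1 and Tnp2, had pachytene means of 7.21% to 10.1% of their round spermatid means, with a median of 8.19%. The pachytene mean of Spaca1 was 8.11% of its round spermatid mean, inside that range. Of the 4915 features that rose into round spermatids, 1143 (23.3%) were inside it as well. Whether spermatid RNA in the pachytene libraries gave the pachytene level of Spaca1 was not tested. The other 9 genes were above the range, at 37.5% for Hook1, 72.6% for Zpbp, 75.3% for Zpbp2, 81.9% for Pick1, 83.1% for Agfg1, 97.5% for Dpy19l2, 102% for Spata16, 109% for Csnk2a2 and 478% for Gopc. In spermatogonia, the same 12 markers were at 0% to 3.84% of their pachytene means, and Spata16, Zpbp2, Dpy19l2, Zpbp and Spaca1 were at 0.0294%, 0.149%, 0.203%, 1.59% and 2.57%. The remaining 5 genes were at 16.6% to 32.3%, in libraries whose Sertoli cell markers summed to more than in any other stage.

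**Figure D3:**
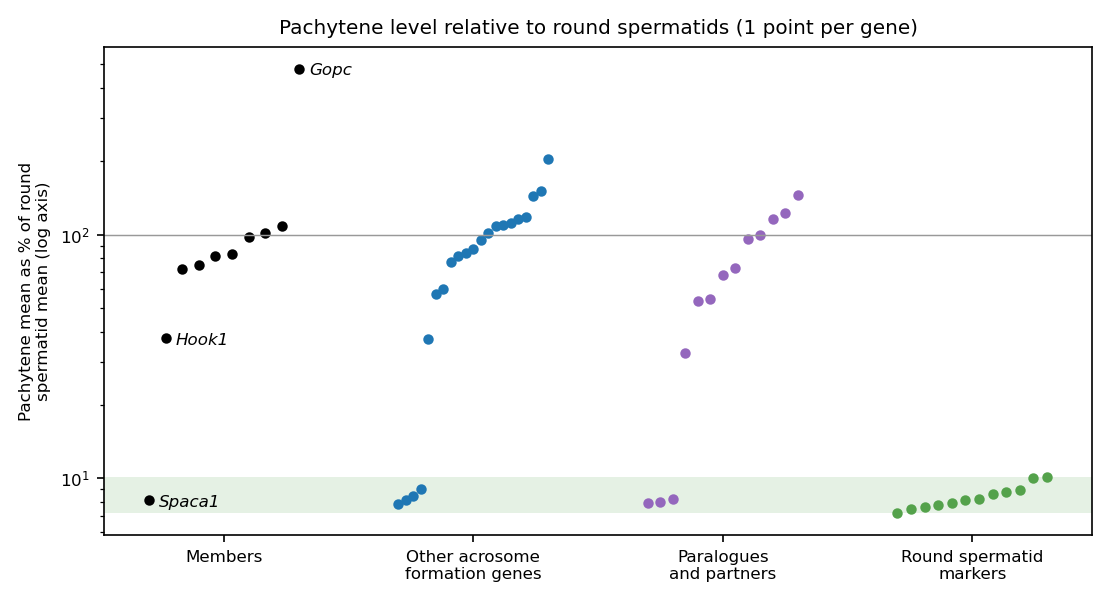
Pachytene mean FPKM as a percent of the round spermatid mean (log axis), 1 point per gene, for the 10 genes (black, labelled Members), other acrosome formation genes (blue), paralogues and partners with the like-named Spaca3 and Spaca4 (purple) and round spermatid markers (green, with their range of 7.21% to 10.1% shaded). Spaca1 lies inside the shaded range together with 4 other acrosome formation genes and, of the purple points, Spaca3, Spaca4 and Ica1, while the other 9 members lie above it.

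Relatives of the genes went different ways. The list set beside them holds 13 genes, paralogues and binding partners together with Spaca3 and Spaca4, which share a name with Spaca1. In pachytene against spermatogonia 6 were higher and 6 lower, against 36.6% and 31% of all features, and 1 was not called. Spaca3, at 0 FPKM in every spermatogonia library, and Spaca4, at 0.443, 0.820 and 0.683 FPKM there, passed the filter only with the later stages. Their direction was thus nearly set in advance, and they add little to the count higher. In CK2, Csnk2a2 rose while the other catalytic subunit, Csnk2a1, fell to 9.23 ± 0.638 FPKM in pachytene, against 29.1 ± 2.47 FPKM in spermatogonia (log2 fold change -1.64, SE 0.0813, limma adjusted p = 4.644e-08). Their order reversed as well, since Csnk2a1 was the higher in spermatogonia and Csnk2a2 in both later stages. Csnk2b, the regulatory subunit, was at 766 ± 22.0 FPKM in pachytene and 53.5 ± 2.30 FPKM in spermatogonia (3.84, SE 0.0529, adjusted p = 8.294e-12).

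The Hook and Dpy19-like families showed the same divergence. Hook2 was at 27.7 ± 0.700 FPKM in pachytene and 2.00 ± 0.215 FPKM in spermatogonia (log2 fold change 3.73), whereas Hook3 was at 2.44 ± 0.191 FPKM in pachytene and 14.7 ± 1.04 FPKM in spermatogonia (-2.54). Dpy19l1 was at 40.4 ± 1.07 FPKM in pachytene and 12.4 ± 0.941 in spermatogonia (1.70), and Dpy19l3 at 1.03 ± 0.542 and 11.9 ± 1.95 (-3.51). Dpy19l4, at -0.96, just missed the call. In spermatogonia Dpy19l2 was thus the lowest of its family, and in both later stages the highest. Agfg2 fell to 4.28 ± 0.625 FPKM in pachytene, against 14.1 ± 1.04 FPKM in spermatogonia (-1.71), opposite to Agfg1.

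**Figure D4:**
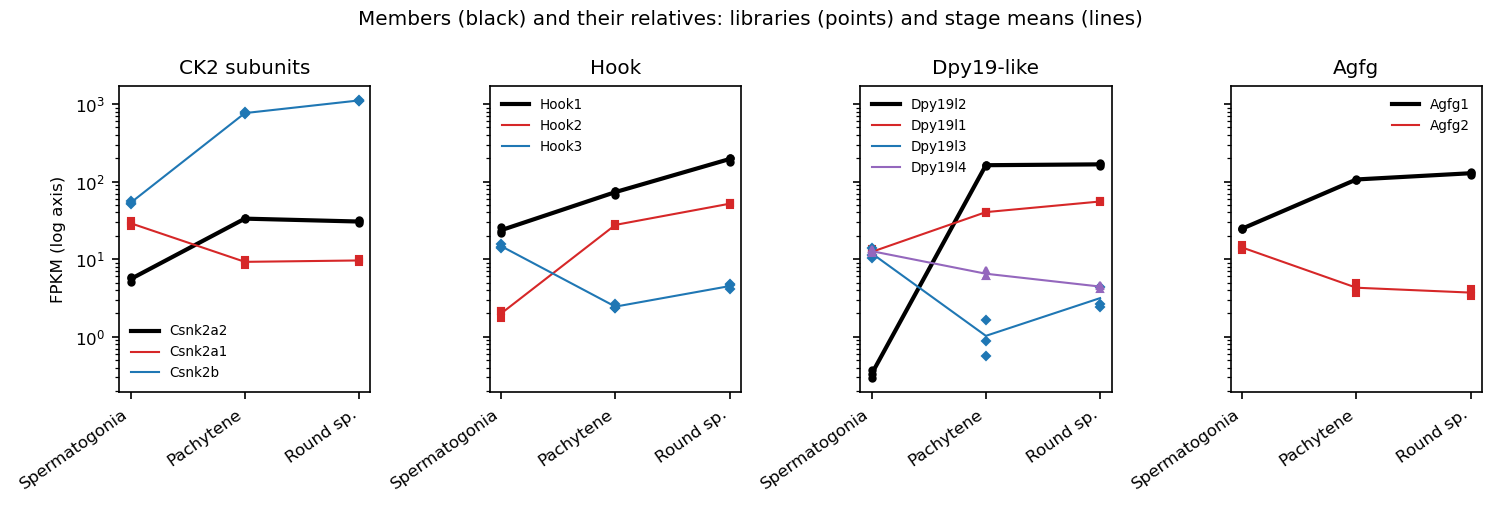
FPKM (log axis) by stage in each library (points) with stage means (lines) for the CK2 subunits, the Hook genes, the Dpy19-like genes and the Agfg pair, with the globozoospermia gene of each panel in black. The lines of Csnk2a2 and Csnk2a1 cross between spermatogonia and pachytene, and Dpy19l2 is the highest of its family in pachytene, at 163 FPKM, and the lowest in spermatogonia, at 0.331 FPKM.

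From pachytene to round spermatids, 4 of these 13 listed genes rose and none fell, against 27.3% and 13.4% of all features. They were the acrosomal proteins Spaca3 (log2 fold change 3.67) and Spaca4 (3.61), Ica1, a BAR domain partner of Pick1 (3.64), and Dpy19l3 (1.59). Ica1 was at 150.4 ± 7.63 FPKM in round spermatids and 12.03 ± 1.23 FPKM in pachytene (SE 0.0781, limma adjusted p = 1.695e-09). Its close relative Ica1l was at 91.2 ± 6.87 FPKM in round spermatids and 76.9 ± 3.09 FPKM in pachytene, a difference of 0.24 that was not called. Spaca3, Spaca4 and Ica1 had pachytene means of 7.9%, 8.18% and 7.99% of their round spermatid means, inside the range of the round spermatid markers.

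A list of 21 other genes of acrosome formation was set beside the 10 genes. In pachytene against spermatogonia 18 of the 21 were higher, none was lower and 3 were not called, where 36.6% of all features were higher and 31% lower, and the median log2 fold change was 3.16, against 0.26 over all features. The largest belonged to Pdcl2 (11.73, SE 0.123), a chaperone-like protein, Spink2 (11.06, SE 0.342), a protease inhibitor of the acrosome, Rimbp3 (8.51, SE 0.0604), a manchette protein, and Acrbp (7.20, SE 0.126), which packages the protease proacrosin, with limma adjusted p-values of 1.629e-09 or below. Pdcl2 was at 578 ± 19.5 FPKM in pachytene and 0.0722 ± 0.0317 FPKM in spermatogonia. Cylc1, a cytoskeletal protein of the perinuclear theca, is listed at 0 in all spermatogonia libraries and at 2.13 ± 0.0394 FPKM in pachytene, so no fold is given. Rimbp3, Actl7a, Ccin, Pdcl2, Fam209, Spink2 and Cylc1 passed the filter only through the later stages, so their direction was nearly set in advance.

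In round spermatids against pachytene 5 of the 21 were higher, 1 was lower and 15 were not called, with a median of 0.19 against 0.13 over all features. These counts are near or below the background of 27.3% higher and 13.4% lower over all features. Those higher were Fam209, a partner of DPY19L2 in mouse (log2 fold change 3.62, SE 0.248), Cylc1 (3.62, SE 0.104), Actl7a, an actin-related protein of the subacrosomal layer (3.56, SE 0.0769), Ccin, calicin of the perinuclear theca (3.47, SE 0.167), and Stx2, a membrane fusion protein (1.42, SE 0.0993), with limma adjusted p-values of 1.276e-06 or below. Vps54, a subunit of a complex that returns vesicles to the Golgi, was the one that fell, by -1.03 (SE 0.131, adjusted p = 7.802e-05). Fam209, Cylc1, Actl7a and Ccin had pachytene means of 8.14%, 7.8%, 8.44% and 9% of their round spermatid means, like Spaca1. Fam209 rose to 447 ± 3.29 FPKM in round spermatids, against 36.4 ± 1.35 FPKM in pachytene, while Dpy19l2 in pachytene was at 97.5% of its round spermatid mean.

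Likeness of pattern was measured as the root mean square difference, over the 9 libraries, of log2(FPKM + 0.1) values centred on each feature's mean, where 0 means an identical pattern. Among the 10 genes the closest pairs were Agfg1 with Csnk2a2 (0.218) and with Pick1 (0.229), followed by Dpy19l2 with Zpbp2 (0.371). Among all 17987 features, the closest to Spata16 were Slco6c1 (0.1004) and Morc2b (0.105), to Dpy19l2 Wdr16 (0.0852) and Lrrc63 (0.123), and to Zpbp2 Dynlrb2 (0.124) and Tcp10b (0.129). Zpbp was closest to Ccdc136 (0.0625) and Pcdha10 (0.0853), and Spaca1 to Spata21 (0.0861) and Cct8l1 (0.104). Gopc was closest to Rassf1 (0.0893), at 9.29 FPKM in round spermatids and 46.0 FPKM in pachytene, and to Gm9917 (0.0906), whose locus in the deposited table overlaps that of Rassf1. Pick1 was closest to Abcf2 (0.0803) and Chrnb2 (0.0889), Agfg1 to Eif5 (0.0499) and Dcaf12 (0.0579), Csnk2a2 to Polr1d (0.0382) and Thoc5 (0.0562), and Hook1 to Nup35 (0.0866) and Rnf25 (0.106). A difference within 0.25 was shared by 365 features with Pick1, 339 with Agfg1 and 336 with Csnk2a2, 81 with Hook1, 78 with Gopc, 59 with Spaca1, 47 with Zpbp, 24 with Zpbp2, 22 with Dpy19l2 and 14 with Spata16. The measure includes the size of each step. For genes under 0.1 FPKM in spermatogonia the added 0.1 hides differences there. Slco6c1 was at 0.00345 FPKM in that stage and Spata16 at 0.0719, yet they count as alike.

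The start windows were searched for letters of motifs known from testis transcription, chosen with the sequences in view, on both strands, and all 10 genes matched RefSeq windows, 12 in all. A gene counted if any of its windows matched, while the background is a share of windows, so the 2 measures differ. Pick1 and Spaca1 have 2 windows each, and Pick1 has TGACG only in window 2. TGACG was in 5 genes (Dpy19l2, Gopc, Pick1, Zpbp2 and Spaca1), against 20.8% of the 32851 windows of the table. CACGTG was in Spata16, with 2 copies, and Dpy19l2, with 1, against 7.15% of windows. GTTGCC, one arm of the X-box bound by RFX factors, was in Pick1 alone, against 12.5% of windows. Window 1 of Pick1 (chr15:79228923-79229222) holds 2 matches close together on opposite strands, as GTTGCCctGGCAAC. The share of all windows with such a pair was not counted. AACNG, the core of the MYB motif bound by the meiotic factor MYBL1, was in 7 genes, against 80.3% of windows. The full element TGACGTCA was in none of the 10, against 1.79% of windows. TGACG occurred in Gopc, which fell into round spermatids, in Spaca1, which rose, and in Dpy19l2, which was not called. A link between these matches and the expression patterns was not tested.

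Several members have other annotated genes on or within them, and a pair of loci with an expressed transcript on the opposite strand are described here. Cypt4 (chr9:24625196-24625824, plus strand) lies inside Dpy19l2 and shares no exonic bases with it. It was at 0.114, 0.0578 and 0.108 FPKM in spermatogonia, 38.8, 45.6 and 43.3 FPKM in pachytene, and 516, 478 and 500.2 FPKM in round spermatids. The nested genes thus differed in stage, with overlapping later stages for Dpy19l2 and far higher values in round spermatids for Cypt4. The long non-coding RNA 9530080O11Rik (chr4:95959715-95967655, minus strand) starts 415 bases from Hook1 on the opposite strand and shares 317 exonic bases with it. In the separately scaled lncRNA table it was at 80.2, 57.9 and 33.8 FPKM in spermatogonia, 93.3, 96.2 and 89.0 in pachytene, and 562, 523 and 597 in round spermatids. Like Hook1, it was highest in all 3 round spermatid libraries. The authors' deposited table gives it a q-value of 0.000108281 for round spermatids against pachytene. Whether counting used the strand is not given in the sources used here, so fragments from the shared bases of Hook1 and this RNA cannot be told apart. Zpbp also shares 223 exonic bases with Spata48 on the other strand, which was not analysed here.

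**Figure D5:**
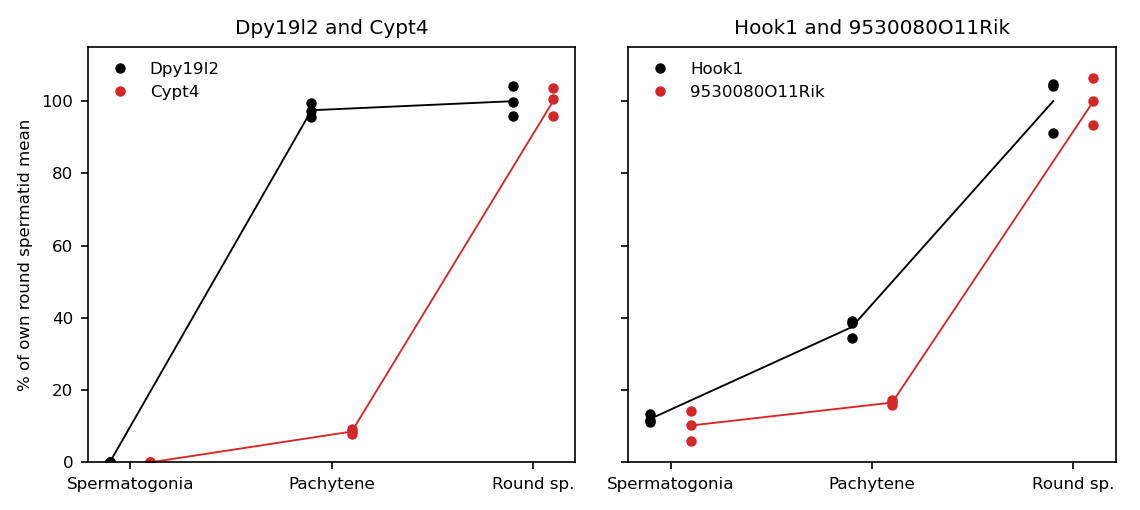
Values in each library (points) and stage means (lines) as a percent of each transcript's own round spermatid mean, for Dpy19l2 and Cypt4, which lies within it (left), and for Hook1 and 9530080O11Rik, which overlaps it on the opposite strand (right). Dpy19l2 is at 97.5% in pachytene where Cypt4 is near the foot of the axis, whereas both transcripts of the Hook1 locus are highest in round spermatids.

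The authors' deposited table of pachytene against spermatogonia lists all 10 genes with a q-value of 0.000103572. Their deposited table of round spermatids against pachytene lists 5 of the 10, namely Gopc, Hook1 and Spaca1 with that same q-value, Zpbp with 0.00713447 and Zpbp2 with 0.0134138. The last 2 are the genes with an adjusted p under 0.05 but under 2-fold in the fit used here. Pick1 and Agfg1, also in that class here, are not among those listed in the authors' deposited table. The share of all features that the authors list was not worked out here, so the counts of 10 and 5 have no background beside them.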

How the data were processed

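The authors deposited FPKM per feature and library in an mRNA table and a separately scaled lncRNA table, and, for each stage transition, tables of called features with a p-value and q-value and, for the mRNA table, a log2 fold change. Cuffdiff 2.2.1, TopHat2 2.0.12, Trim Galore, FastQC and the mm10 build are named in the submitters' processing notes. Per the labels' protocols, each library was stranded, made from 1 µg of total RNA and read in pairs of 100 bp. Their options, the annotation release and strand use in counting: not given in the sources used here. Depth was estimated from the steps in low FPKM of genes with transcripts of at least 2000 nt. Excluded were 31 features lacking a value in some library.

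Since FPKM are not counts, log2(FPKM + 0.1) was analysed, and a feature had to reach 0.5 FPKM in 3 or more libraries. 1 limma 3.58.1 model (R 4.3.3) with a mean trend over all 9 libraries gave fold changes and Benjamini-Hochberg adjusted p-values, and it was tested on simulated data. A call needs an adjusted p under 0.05 and a 2-fold difference, and for the difference between steps the adjusted p alone. For low genes, the pseudocount makes such folds too small. Every ± is an SD over 3 libraries, and no interval was made from the estimated depth.

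The 10 genes, the other lists and the motifs were chosen with earlier results of these data known. The rule for named genes takes all 10, at most 4 called genes with the largest change per other list and comparison, and the 2 features most like each of the 10. Genes of those lists named beyond that rule were chosen after their values were seen. Gene positions are 1-based and from GENCODE M21 on GRCm38, the assembly that mm10 names. The 16 alternatives covered the pseudocount, the filter, the scaling, a model without the trend, separate fits, the replicate block and each library left out.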

Additional observations from a re-analysis of the deposited data

How the results depend on the processing

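Of 630 log2 fold changes of the 10 genes under the alternatives, 624 kept their call and direction, and 125 of 126 counts of called genes equalled the reported one. Of the 6 that did not, 5 arose with equal library medians. This scaling moved every log2 fold change by 0.11 for pachytene against spermatogonia, -0.36 for round spermatids against pachytene and -0.25 for round spermatids against spermatogonia. It gave 4115 features lower in round spermatids than in pachytene, in place of 2418. The round spermatid over pachytene value became -0.32 for Dpy19l2, -0.0722 for Pick1 and -0.0934 for Agfg1, and the round spermatid over spermatogonia value became -0.0481 for Gopc. The difference between the steps became -0.68 for Hook1, with a limma adjusted p of 0.004015. The Spata16 value for round spermatids over pachytene was -0.03, was 0.0191 without round spermatid replicate 2, and ranged from -0.0759 to 0.0191 with single libraries left out. The fold of Spata16 in pachytene over spermatogonia depended on the pseudocount, being 7.84 on the log2 scale with 1 FPKM and 11.56 with 0.01 FPKM.

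The replicate number was not taken to pair libraries, because the labels do not say that it marks a shared animal or day. Libraries with the same number did not deviate together, with correlations of -0.106 to 0.0388 against -0.0616 to 0.117 for different numbers. With the replicate block, 6582 features were higher in pachytene than in spermatogonia in place of 6584, and 4917 higher and 2421 lower in round spermatids than in pachytene in place of 4915 and 2418. It changed no call of the 10 genes.

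Depth limits the low end, since the spermatogonia values of Spata16 rest on about 3.78 to 9.29 fragments per library.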

Other observations

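The acrosome grows from the Golgi apparatus. Of 19 genes of Golgi structure and vesicle transport, 5 were higher, 4 lower and 10 not called in pachytene against spermatogonia, where 36.6% of all features were higher and 31% lower, with a median log2 fold change of 0.40 against 0.26 over all features. The stacking protein Gorasp2 was at 158 ± 4.74 FPKM in pachytene and 15.6 ± 1.15 FPKM in spermatogonia (SD, n = 3 each; log2 fold change 3.33, SE 0.0629, limma adjusted p = 5.96e-11). Its paralogue Gorasp1 rose by 2.61, and Rab27a, a GTPase of secretory vesicles, by 3.39. Nsf, the ATPase that recycles membrane fusion complexes, fell to 4.20 ± 0.368 FPKM in pachytene, against 16.3 ± 0.951 FPKM in spermatogonia. Rab6b and Rab3a fell as well, with log2 fold changes of -1.99 and -1.48.

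From pachytene to round spermatids, 1 of the 19 was higher, Nsf at 1.00, and 3 were lower, Gorasp1 (-1.01), Rab27a (-1.17) and Copa (-1.01), a subunit of the COPI vesicle coat, while 15 were not called. Of all features, 27.3% were higher and 13.4% lower, so the count lower is near that background and the count higher is below it. The median log2 fold change of the 19 was -0.41, against 0.13 over all features. Nsf, Gorasp1 and Copa lay close to the 2-fold limit. Equal library medians moved every value by -0.36, more than that margin, so these counts depend on the scaling. Gorasp1 was at 15.8 ± 1.41 FPKM in round spermatids and 31.9 ± 0.209 FPKM in pachytene, and Rab27a at 11.3 ± 0.498 and 25.5 ± 0.627. Like Gopc, these 2 genes were higher in pachytene than in either other stage. Gorasp2 differed from its paralogue, at 223 ± 9.82 FPKM in round spermatids and 158 ± 4.74 FPKM in pachytene (log2 fold change 0.50, not called).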
